A study of Mus musculus with 8 samples.

Results

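Krt5, Krt14, Krt1, Krt10, Krt2 and Krt77 encode the keratins of the basal and suprabasal layers of the epidermis. They were taken as every row of the deposited CAGE table whose gene symbol was one of these names. All 6 genes were found, of 16094 gene symbols in the table, and they carried 85 distinct tag clusters. CAGE reads RNA from its capped 5′ end, and a tag cluster is a short stretch of the genome where such ends gathered. The libraries came from 8 mice of strain C57BL/6, whose facial skin was taken on postnatal day 28. In 4 of them the skin was lesional and the genotype is written Nectin-cre(+);Ikk2FL/FL, meaning floxed Ikk2 with a Cre transgene. The other 4 were non-lesional skin labelled Control, with no allele given. The series text writes the Cre line as Nestin-cre, lesion and genotype change together, and neither the control alleles nor the cells in which Cre acted are given in the sources used here.

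The 8 columns of values in the table carry names that match no label of a mouse. They were not used, so no level of a keratin is given and lesional skin was not compared with control skin. What follows describes where the clusters of these genes lie, how wide they are and which of them carry a gene symbol. The cluster list belongs to the series as a whole, and a cluster in it does not show which group it came from.

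Keratins are the intermediate filament proteins of epithelial cells. A filament is built from pairs of an acidic type I keratin and a basic type II keratin. Keratinocytes of the basal layer pair Krt5 (type II) with Krt14 (type I), and cells that leave this layer switch to Krt1 (type II) with Krt10 (type I). Krt2 is a type II keratin of the upper suprabasal layers, known in the mouse from ear, tail and sole skin. Krt77, a type II keratin, is a close relative of Krt1. Type I genes and type II genes stand in separate clusters of genes in the genome.

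RefSeq gives promoter windows (assembly GRCm38.p6) that matched 5 of the 6 genes, with Krt1 unmatched. The 80 bases before the RefSeq start are shown because a TATA box, where a gene has one, lies in this stretch. Each is written 5′ to 3′ on the minus strand, which carries all of these genes. Capitals mark TATA box letters, searched on that strand at 20 to 40 bases before the start in the usual spelling TATAAA, in a repeated form spelled TATATA or in a shifted form spelled ATAAAA.
Krt5, chr15:101712906-101712985: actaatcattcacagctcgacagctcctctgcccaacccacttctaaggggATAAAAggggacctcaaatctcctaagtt
Krt2, chr15:101818170-101818249: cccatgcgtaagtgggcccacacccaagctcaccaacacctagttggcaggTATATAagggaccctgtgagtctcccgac
Krt77, chr15:101869706-101869785: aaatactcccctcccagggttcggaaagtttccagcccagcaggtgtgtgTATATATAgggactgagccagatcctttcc
Krt10, chr11:99389365-99389444: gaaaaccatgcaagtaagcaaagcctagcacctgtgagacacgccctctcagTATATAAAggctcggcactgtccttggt
Krt14, chr11:100206031-100206110: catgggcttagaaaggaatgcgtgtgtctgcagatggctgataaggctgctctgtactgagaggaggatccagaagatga

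TATA letters began 29 bases before the start in Krt5 and Krt2, 30 bases before it in Krt77 and 28 bases before it in Krt10. Any of these spellings stood in the same place in 3.61% of 32851 RefSeq windows. The spellings were chosen after the sequences were seen. The Krt14 window held none of them. That window is not at the annotated beginning of Krt14: in GENCODE M21, on the same assembly, the gene starts at 100207548 on chromosome 11, and the RefSeq start used for the window lies 1518 bp downstream of it, inside intron 1 (100205704 to 100206912). For Krt10, Krt2 and Krt77 the RefSeq and GENCODE starts were at the same base, and for Krt5 they were 7 bp apart. Other motifs were searched on both strands of the whole RefSeq window, from 250 bases before the start to 50 after it, most of which is not printed above. The letters of a CCAAT box were on the opposite strand, 141 bases before the start in Krt10 and 159 before it in Krt2, and in 37.4% of all windows on either strand. Letters searched for AP-1 (TGANTCA), AP-2 (GCCNNNGGC) and Sp1 (GGGCGG) were in none of the 5 windows, and were in 7.81%, 16.6% and 35.7% of all windows on either strand.

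Coordinates from here on are those of the deposited table, which the submitters' processing notes place on build mm9, and they cannot be set against the GRCm38 coordinates above. All 85 clusters lay on the minus strand, and none of them carried the symbol of another gene as well. On chromosome 15, in order of position, came Krt5, Krt2, Krt1 and Krt77, all type II. The most upstream edges of Krt5 and Krt2 were 105184 bp apart, those of Krt2 and Krt1 were 32661 bp apart and those of Krt1 and Krt77 were 19014 bp apart. Between Krt5 and Krt2 the table named 4 other genes, of which 3 were keratins (Krt71, Krt73 and Krt74). It named no gene between Krt2 and Krt77 other than Krt1. The type I genes Krt10 and Krt14 stood 818619 bp apart on chromosome 11, with 63 other gene symbols between them, 14 of them keratins.

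Krt5, the type II keratin of basal cells, had 10 clusters between 101542819 and 101543417 on chromosome 15. Only 3 of them spanned at least 10 bp. Counted from the 5′ side, a cluster of 126 bp ran from 101543261 to 101543387, a cluster of 140 bp from 101542937 to 101543077, and a cluster of 32 bp from 101542868 to 101542900. The other 7 spanned 2 to 8 bp. All of them fitted into 598 bp, with no gap above 72 bp, so that joining clusters up to 100 bp apart left a single group. A cluster of 2 bp without a symbol lay on the opposite strand, 91 bp upstream of the Krt5 edge.

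Krt14, the type I partner of Krt5, had 28 clusters, the most of the 46 keratin symbols in the table. They ran over 3062 bp, from 100066292 to 100069354 on chromosome 11, and joined at 100 bp into 8 groups, where each of the other genes formed 1. Joined at 20 bp, Krt14 formed 15 groups, Krt10 10, Krt77 8, Krt5 and Krt1 7 each and Krt2 1, so the contrast depended on the joining distance. The most upstream was a single cluster of 3 bp. A group of 6 clusters within 207 bp followed, 359 bp downstream of that edge, and held a cluster of 48 bp from 100068788 to 100068836. The third group began 713 bp downstream, with 7 clusters within 372 bp, among them one of 169 bp from 100068472 to 100068641. The 5 groups farther downstream began at 1668, 1938, 2332, 2568 and 2813 bp. The widest Krt14 cluster, at 191 bp, stood in the last of them, 2871 bp from the upstream edge. The widest symbol-bearing cluster of each other gene was at most 340 bp from its own edge. In Krt5 a wider cluster without a symbol, of 165 bp, lay 3105 bp from the edge on the same strand. The largest gap between neighbouring symbol-bearing clusters was 583 bp in Krt14, against 71 to 80 bp in Krt5, Krt1, Krt10 and Krt77. Gaps from there to the next cluster without a symbol, given below, were longer in those genes. The contrasts between Krt14 and the other genes thus cover symbol-bearing clusters only, and the rule for giving symbols was not stated.

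Krt14 also had 5 clusters without a symbol on the opposite strand within its extent. The widest of these spanned 104 bp, from 100068226 to 100068330, and overlapped the Krt14 cluster of 59 bp that ran from 100068302 to 100068361. The other 4 spanned 2 to 6 bp. In Krt1, 1 opposite-strand cluster of 2 bp lay within the extent, at 101680783 to 101680785. None lay within the extent of Krt5, Krt10, Krt2 or Krt77. Of all 16080 genes with clusters on a single chromosome and strand, 7.46% had such a cluster, and 2 of the 6 keratin genes did. A longer extent gives more room for one, and this was not corrected for.

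**Figure D1:**
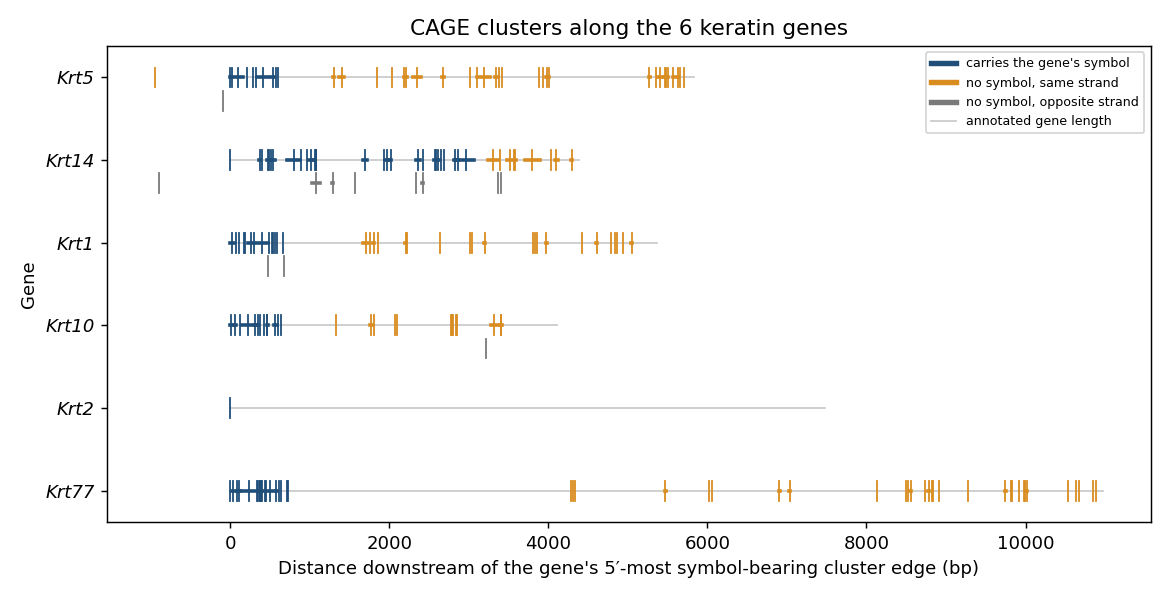
Clusters along each of the 6 genes, placed by distance (bp) downstream of the most upstream edge of the clusters that carry the gene's symbol. Each vertical tick is a cluster and the thick bar its span, blue for clusters with the symbol, orange for clusters without a symbol on the same strand and grey, set lower, for clusters without a symbol on the opposite strand, and the pale line is the GENCODE gene length. Blue clusters end within 732 bp of the edge in all genes but Krt14, where they run to 3062 bp.

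Krt1, the type II keratin that marks the move out of the basal layer, had 14 clusters within 668 bp, from 101680594 to 101681262 on chromosome 15. Its most upstream cluster was one of the wide ones, with 55 bp from 101681207 to 101681262. A cluster of 62 bp began 227 bp downstream of that edge and the widest, of 160 bp, began 321 bp downstream of it. The other 11 clusters spanned 2 to 6 bp. Wide clusters were thus few in Krt1 and narrow ones many, as in Krt5.

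Krt10, the type I partner of Krt1, had 13 clusters within 640 bp, from 99250095 to 99250735 on chromosome 11. Of these, 4 spanned at least 10 bp. A cluster of 30 bp stood at the upstream edge, a cluster of 20 bp from 99250661 to 99250681 was 54 bp farther on, the widest, of 158 bp, began at 144 bp and a cluster of 33 bp began at 551 bp. The extents of Krt1 and Krt10 differed by little, and so did their numbers of clusters. No replicate measure of a cluster list exists here, so these counts have no error.

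Krt77 had 19 clusters within 732 bp, from 101699544 to 101700276 on chromosome 15. The widest cluster of the 6 genes was here, with 193 bp from 101699946 to 101700139. A cluster of 38 bp lay upstream of it, 19 bp from the edge, and clusters of 10 and 78 bp lay downstream of it. The remaining 15 spanned under 10 bp. Gaps between Krt77 clusters had a median of 16.5 bp, against 18 bp in Krt1, 23 bp in Krt5 and Krt14 and 23.5 bp in Krt10.

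Krt2 stood apart from the other 5 genes described. It had a single cluster of 4 bp, from 101648597 to 101648601 on chromosome 15, and no other cluster lay on its strand over the 7481 bp of the gene's annotated length. In the table as a whole, 91.2% of genes had at least 1 cluster of 10 bp or more, and 5 of the 6 keratin genes did, Krt2 being the exception. A cluster of 100 bp or more was found for 56.0% of genes and for the same 5 of 6. Other keratin symbols without a cluster of 10 bp or more were Krt13, Krt20, Krt36, Krt42 and Krt74. Krt20 had a single cluster of 4 bp, like Krt2. Whether a narrow cluster goes with a low level of RNA was not tested, as no values were used.

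Over the 6 genes, 61 of 85 clusters (71.8%) spanned under 10 bp, against 48.3% of all clusters with a symbol. These shares were not matched for clusters per gene, whose median was 13.5 in the 6 genes and 2 in all genes. Whether narrow clusters are more frequent here than in other genes with many clusters was not tested. The median span was 3 bp and 34 clusters spanned 2 bp, the smallest span in the table. The shares of all clusters with a symbol that spanned 2 bp, or 100 bp or more, were not computed. A span of 100 bp or more was found in 7 clusters of the 6 genes. Of these, Krt14 and Krt5 had 2 each and Krt1, Krt10 and Krt77 had 1 each. The summed span of the clusters covered 24.4% of the extent in Krt14, and between 42.0% (Krt10) and 53.8% (Krt5) in the other genes with several clusters.

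**Figure D2:**
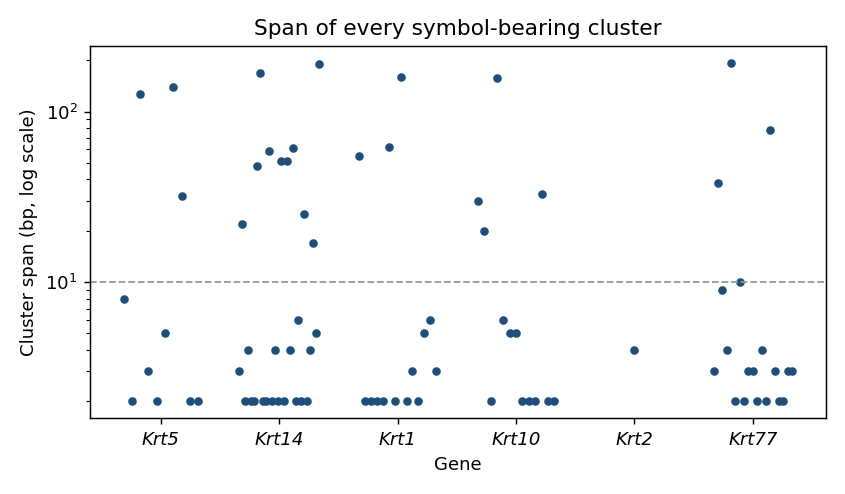
Span (bp, logarithmic axis) of every cluster that carries the symbol of the 6 genes, ordered from upstream to downstream within each gene, with a dashed line at 10 bp. Most points lie below the line (61 of 85), and Krt2 has a single point at 4 bp.

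Except in Krt2, clusters without a symbol lay on the same strand downstream of those that carried one. Downstream of the last Krt5 cluster the same strand held further clusters without any symbol, after a gap of 700 bp. Within the annotated length of Krt5 (5829 bp in GENCODE M21, used as a length only) there were 28 of them, 10 of at least 10 bp, with the widest at 165 bp. Krt1 had 21 within 5369 bp, Krt10 had 13 within 4111 bp and Krt14 had 9 within 4387 bp. Krt77 had 30 within 10975 bp, of which 2 spanned at least 10 bp and none more than 12 bp. Krt2 had none.

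With the unnamed clusters added, the order of the genes depended on the stretch counted. By symbol, Krt14 had 28 and Krt5 had 10. Over the gene lengths, which differ, Krt5 had 38, Krt14 had 37, Krt1 had 35, Krt10 had 26, Krt77 had 49 and Krt2 kept its 1. Of clusters of at least 10 bp, Krt14 then had 14, Krt5 had 13, Krt1 had 7, and Krt10 and Krt77 had 6 each. Over an equal stretch of 4000 bp from the upstream edge, Krt14 had 34, Krt1 had 28, Krt5 had 27, Krt10 had 26, Krt77 had 19 and Krt2 had 1. Krt14 was thus first over the equal stretch, while over the gene lengths Krt77 and Krt5 had more. Which gene the unnamed clusters belong to is not given in the table, and the rule by which symbols were given was not stated in the sources used here.

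**Figure D3:**
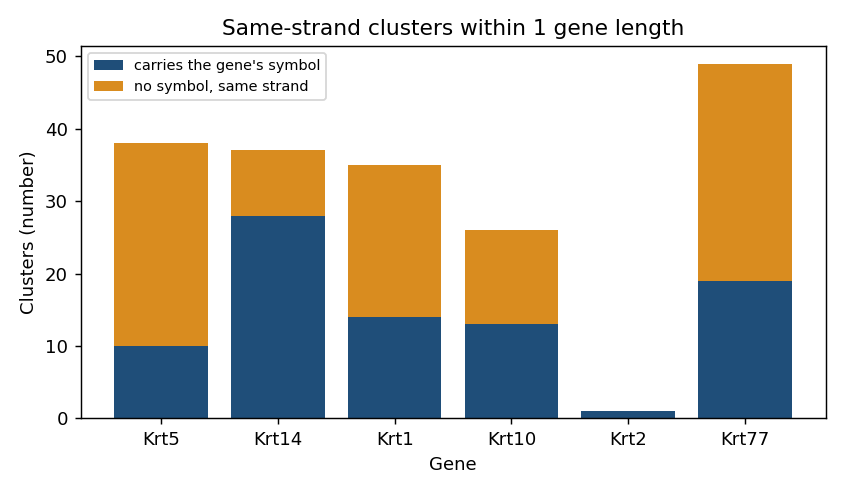
Number of clusters on the strand of each gene, over its annotated length from the most upstream symbol-bearing edge, with clusters that carry the symbol in blue and clusters without a symbol in orange. Krt5 and Krt14 reach 38 and 37 clusters in all, with 10 and 28 in blue.

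The stretch that held the symbol was close in length to the first exon in 4 of the genes. Extents of 598 bp in Krt5, 668 bp in Krt1, 640 bp in Krt10 and 732 bp in Krt77 stood beside GENCODE exon 1 lengths of 625, 682, 626 and 639 bp. The gap from there to the nearest unnamed cluster on the same strand was 700 bp in Krt5, 1003 bp in Krt1, 685 bp in Krt10 and 3553 bp in Krt77, beside intron 1 lengths of 530, 954, 646 and 3401 bp. In each of these 4 genes the gap was the longer of the pair, and the order of the genes by gap was their order by intron except that Krt5 and Krt10 changed places. Krt14 differed, with an extent of 3062 bp beside an exon 1 of 636 bp, and a gap of 181 bp beside an intron 1 of 1209 bp. Krt2 differed too, with an extent of 4 bp beside an exon 1 of 716 bp. The exon 1 lengths of the other 4 genes were close to each other, so whether extent follows exon length was not tested. These lengths come from different builds, so they show sizes only and place no cluster in an exon or an intron.

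Unnamed clusters downstream were frequent in the keratin genes by the measure of the whole table. Within 4000 bp of the upstream edge on the same strand, Krt5 had 17, Krt1 had 14, Krt10 had 13, Krt14 had 6, and Krt77 and Krt2 had none. At least 1 was found for 4 of the 6 genes and for 12.5% of all 16080 genes. At least 10 were found for Krt5, Krt1 and Krt10, and for 0.224% of all genes. That count of 3 genes depended on the setting. Within 3000 bp Krt10 had 10, Krt5 had 8 and Krt1 had 7, and within 2000 bp they had 3, 3 and 4. With spans of at least 10 bp alone over 4000 bp, Krt5 had 6, Krt1 had 3 and Krt10 had 2. Other keratin symbols had them too, with at least 1 in 29 of 40 genes, a median of 2 and a maximum of 13. Of these, Krt27 (13), Krt6b (12) and Krt17 (11) also had at least 10 within 4000 bp. These windows were chosen after the table was seen, and genes shorter than the window can hold clusters of a neighbour.

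At least 10 clusters with a symbol were found for 5.06% of all genes and for 5 of the 6 keratin genes. Among the 40 other keratin symbols, Krt25, Krt80, Krt15, Krt71, Krt17, Krt79, Krt33a, Krt16 and Krt28 had at least 10 as well. The median was 13.5 in these 6 genes, 5 in the 40 other keratin symbols and 2 in all genes. The share of genes with at least as many clusters was 0.087% for Krt14, 0.528% for Krt77, 1.87% for Krt1 and 2.50% for Krt10. These shares include the gene itself. Extents above 3000 bp, as in Krt14, were common among genes with that many clusters: of 812 genes with at least 10 clusters on 1 chromosome and strand, 51.5% reached 3000 bp, with a median of 3276 bp. The extents of Krt5, Krt14, Krt1, Krt10 and Krt77 were all below that median.

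Among other keratins, Krt25 of the inner root sheath had 23 clusters, Krt80 had 22 and Krt15, a keratin of basal and hair follicle stem cells, had 21. Of the 18 other keratins listed for the epidermis and its appendages, 16 had a cluster, with a median of 7.5. Krt17 and Krt79 had 16 each, Krt16 had 10, Krt6a had 9 and Krt6b had 8. The keratins of simple epithelia Krt7, Krt8, Krt18, Krt19 and Krt20 had 1 each, like Krt2. Krt9, known from sole skin, and Krt76, known from the palate, were not found as symbols in the clusters used here. Krt15, with 21 clusters over 3126 bp and 10 of at least 10 bp, was the keratin nearest to Krt14 in extent and equal to it in clusters of at least 10 bp, whereas Krt25 and Krt80 were nearer in number of clusters. Krt14, Krt16 and Krt17 are related copies, as are Krt5, Krt6a and Krt6b. How reads that fit several copies were placed was not stated, so the cluster counts of these genes are uncertain.

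**Figure D4:**
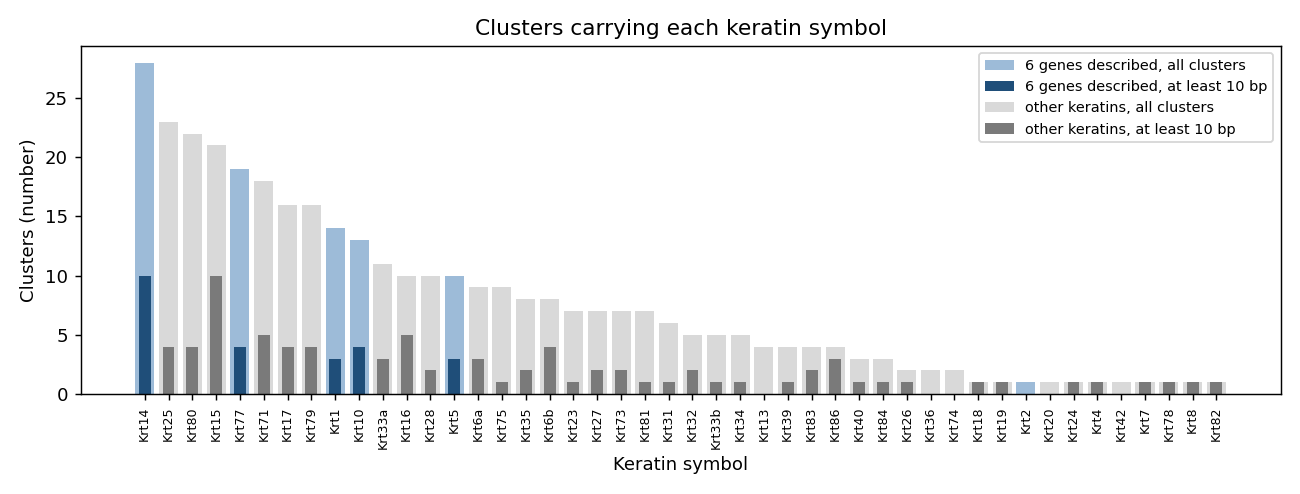
Number of clusters for each of 46 keratin symbols in falling order, with all clusters as wide bars and clusters of at least 10 bp as narrow bars, in blue for the 6 genes described and grey for the others. Krt14 stands first at 28 and Krt2 is among the symbols with 1.

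Each of 9 genes listed as basal layer partners had a cluster, with a median of 4. They are genes of hemidesmosomes and their laminin, together with Trp63, the gene of the basal cell transcription factor p63, which had 3. Plec, which links filaments to the hemidesmosome, had 21, Col17a1 had 13, Dst had 12 and Itga6 had 8, while the laminin genes Lamb3 and Lama3 had 2 each. All 18 genes listed as suprabasal partners, of cell junctions and differentiation, had a cluster, with a median of 7.5. Whether the genes of either list are limited to those layers was not tested. Jup and Pkp1, both of the desmosome, had 17 and 15, and Dsp, the plakin that binds keratin there, had 10. Ivl had 5 and Lor had 1. Each gene of both lists also had a cluster of at least 10 bp, as did 91.2% of all genes in the table. Krt2 and some other keratins had none.

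Markers of 4 other kinds of cell in facial skin were looked up. Hair shaft keratins (5 of 5), inner root sheath genes (4 of 4), muscle genes (3 of 3) and fibroblast genes (3 of 3) were all present. The fibroblast genes Col1a1 and Col1a2 had 24 and 23 clusters, and Pdgfra had 8. In the inner root sheath Krt25 had 23 and Krt71 had 18, but Krt27 had 7 and Tchh had 2. Of the muscle genes Myh4 had 13, but Acta1 had 2 and Ckm had 1. The hair shaft keratins had 4 to 11. A long cluster list was thus not particular to the interfollicular epidermis, though several of these markers had a short one. What these cell types contributed to the clusters of the 6 keratin genes was not tested.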

How the data were processed

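CAGE libraries were made from total RNA of facial skin. The authors deposited 1 table, with a row per tag cluster and gene. Its position and symbol columns were used, as text, and the 8 columns of values were not, since their names match no sample label. The submitters' processing notes name BWA, HISAT2 and build mm9. No source used here states how clusters were built or given symbols, or whether starts count from 0. Library depth was therefore not analysed, and the planned test between groups was not run.

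Distinct positions were counted with Python 3.11.15 and pandas 2.3.3. Span is end minus start. Clusters at most 100 bp apart were joined, and this step was checked on simulated data. Unnamed clusters were counted on the strand of the gene, from its upstream edge over 4000 bp or over the GENCODE M21 gene length. Promoter windows came from RefSeq (GRCm38.p6). The 6 members are always named. Other genes were named from lists of keratins, filament partners and cell type markers, or as 1 of the 3 keratins with the most clusters. Some keratins outside these lists were named for their cluster counts or spans, or because they lay between members. Members and lists were chosen with earlier results of these data known. No test was made, so counts carry no p-value or error.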

Additional observations from a re-analysis of the deposited data

How the results depend on the processing

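No paired analysis was possible because no column of values was matched to a mouse, and the planned comparison of levels, with its normalizations, filters, block and left-out libraries, was not run. Counting rows, or leaving out clusters with several symbols, kept the total at 85. Clusters of at least 10 bp numbered 24, with 34 at 5 bp and 22 at 20 bp. The median extent was 654 bp, and 523 bp with clusters of at least 10 bp, where Krt2 has no value. Groups depended on the joining distance, with 13 at 100 bp, 48 at 20 bp, 21 at 50 bp and 7 at 500 bp. Krt14 went from 8 groups at 100 bp to 15 at 20 bp and 2 at 500 bp, and the other genes from 1 each to between 1 and 10 at 20 bp and 1 each at 500 bp. Unnamed clusters downstream, in windows chosen after seeing the data, numbered 50 within 4000 bp, 10 within 2000 bp, 25 within 3000 bp, 63 within 5000 bp and 14 when only spans of at least 10 bp counted. Of 71 values of single genes under an alternative, 46 stayed within 1.5 times and 25 moved by more. Some of the 46 could not change, such as counts without clusters of several symbols, since these genes had no such cluster.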
